A study of Homo sapiens with 4 samples.

Results

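The genes described are the 3 receptors of the B-cell survival factors BAFF and APRIL (TNFRSF13B, TNFRSF13C and TNFRSF17) and 5 genes of TRAF proteins, the adaptors that these and related receptors recruit (TRAF1, TRAF2, TRAF3, TRAF5 and TRAF6). They were taken by symbol from a table of 41507 genes, in which all 8 were found. RNA was sequenced from SU-DHL-5 and Toledo cells, which are established lines of diffuse large B-cell lymphoma (DLBCL). For each line, 1 sample received DMSO as the vehicle and 1 sample received JQ1 at 1 µM, for 6 h by the labels of the samples, while a figure legend of the study gives a longer time. JQ1 inhibits BET proteins, the readers of acetylated histones, by competing for the pocket with which they bind chromatin. The labels name no genetic change, other agent or difference in culture between the samples, and each line stands for 1 patient's tumor. Each sample has 2 libraries in the table, whose difference is not given in the sources used here, so that they were averaged and counted as 1 replicate. Since n = 1 in every condition, samples could not be tested against each other, no p is printed, and the values of both libraries stand beside each difference instead.

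BAFF and APRIL are ligands of the tumor necrosis factor family that keep B cells alive. The BAFF receptor (BAFF-R, from TNFRSF13C) binds BAFF alone, TACI (from TNFRSF13B) binds both ligands, and BCMA (from TNFRSF17) binds APRIL more tightly and is best known from plasma cells. None of them has enzymatic activity, and all signal through TRAF proteins. In a resting B cell, TRAF3 and TRAF2 hold the kinase NIK (from MAP3K14) at a low level together with the ubiquitin ligases cIAP1 and cIAP2 (from BIRC2 and BIRC3). When BAFF-R is engaged, TRAF3 is degraded, NIK accumulates, and the p100 protein (from NFKB2) is processed to the active partner of RELB, which is the non-canonical arm of NF-κB. TRAF6 works in another arm, below Toll-like receptors, where it builds ubiquitin chains that activate the kinase TAK1.

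Expression was given as RPKM, a read number corrected for gene length and for the total reads of a library. Other differences between libraries, such as the trend with gene length given below, are not corrected by it. The 8 libraries held 14617583 to 17679831 mapped reads, of which 94.8% to 95.5% were on genes. Reads were recovered from the RPKM values, and 95% intervals computed from them cover counting error only. Over genes with at least 100 reads, the median absolute log2 difference between the libraries of a sample lay between 0.060 and 0.16. It was largest between the DMSO libraries of Toledo, where the log2 difference rose with gene length (a Spearman rho of 0.64 over 8985 genes, which do not vary independently of each other), and rho was between -0.31 and -0.074 in the other samples. All 6 B-cell markers were at or above 1 RPKM in every sample, with a summed level of 618 to 942 RPKM. The T-cell markers summed to 0 to 1.12 RPKM, with CD2 at 0 in every sample, and the monocyte markers to 0.281 to 1.80 RPKM. Most of the T-cell sum in SU-DHL-5 with DMSO was CD3E, at 1.09 and 0.934 RPKM.

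Promoter windows of RefSeq, which run from 250 bases before to 50 bases after a gene's start site, were matched for 6 of the 8 genes (10 windows on GRCh38.p14). TNFRSF13C and TNFRSF17 had none. The windows below are shown because they belong to the gene with the lowest JQ1 ratio among those with a window (TNFRSF13B), to the TRAF gene with the largest difference in SU-DHL-5 (TRAF1), to the TRAF gene whose libraries overlapped in SU-DHL-5 and not in Toledo (TRAF3), and to the TRAF gene that was not lower after JQ1 in either line (TRAF6). They are written 5′ to 3′ on the strand of the gene. Capitals mark matches on either strand to the GC box GGGCGG, the ETS core GGAAGT, the E-box CACGTG, the TATA box TATAAA or the consensus of κB sites, and adjacent GC boxes of TRAF3 overlap.
TNFRSF13B (chr17:16972069-16972368, minus strand): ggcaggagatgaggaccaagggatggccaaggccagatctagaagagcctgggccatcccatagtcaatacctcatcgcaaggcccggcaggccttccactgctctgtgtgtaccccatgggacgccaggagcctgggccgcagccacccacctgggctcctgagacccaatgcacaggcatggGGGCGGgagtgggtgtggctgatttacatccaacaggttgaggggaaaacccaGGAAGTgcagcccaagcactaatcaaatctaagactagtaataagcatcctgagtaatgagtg
TRAF1 (chr9:120929122-120929421, minus strand): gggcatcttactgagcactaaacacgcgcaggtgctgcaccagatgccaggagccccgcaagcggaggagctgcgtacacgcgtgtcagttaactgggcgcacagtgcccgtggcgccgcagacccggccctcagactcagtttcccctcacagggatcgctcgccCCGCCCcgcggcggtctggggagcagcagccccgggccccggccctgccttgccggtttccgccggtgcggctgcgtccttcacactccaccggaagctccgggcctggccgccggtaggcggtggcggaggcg
TRAF3 (chr14:102777199-102777498, plus strand): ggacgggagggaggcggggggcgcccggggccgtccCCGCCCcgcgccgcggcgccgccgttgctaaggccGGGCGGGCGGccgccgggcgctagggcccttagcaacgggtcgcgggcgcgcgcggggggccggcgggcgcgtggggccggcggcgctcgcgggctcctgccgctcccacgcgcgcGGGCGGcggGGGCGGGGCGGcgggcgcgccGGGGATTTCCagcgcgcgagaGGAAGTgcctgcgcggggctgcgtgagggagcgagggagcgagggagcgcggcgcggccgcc
TRAF6 (chr11:36510223-36510522, minus strand): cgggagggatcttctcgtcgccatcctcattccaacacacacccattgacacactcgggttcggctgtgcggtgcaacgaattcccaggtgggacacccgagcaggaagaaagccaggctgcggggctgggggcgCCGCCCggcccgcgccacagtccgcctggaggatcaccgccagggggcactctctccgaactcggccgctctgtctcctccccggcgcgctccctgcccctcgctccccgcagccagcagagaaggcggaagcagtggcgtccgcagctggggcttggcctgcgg

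The window of TNFRSF13B was 57.3% G and C with 5 CpG dinucleotides, below the median of 58.7% and 14 CpG over all 35116 windows. The windows shown for TRAF1, TRAF3 and TRAF6 were 71.3%, 86.0% and 69.7% G and C, with 32, 61 and 28 CpG. TRAF genes also had windows poor in CpG, which are not shown, with 3 and 4 CpG in the other windows of TRAF1 and 8 and 3 CpG in 2 of the windows of TRAF5. The GC box, which 45.0% of all windows hold, was present in all 4. The ETS core, held by 22.8% of all windows, lay 13 bases before the start of TNFRSF13B and 12 bases before that of TRAF3. The κB consensus, held by 11.3% of all windows, matched in TRAF3 alone of the 4, 33 bases before its start. None of the 4 held an E-box (7.26% of all windows) or a TATA box (11.5%). A match describes the letters in a window and was not tied to any difference below.

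The first question was how much RNA of each receptor the lines carried without drug and what remained with JQ1. In Toledo, the RNAs of all 3 receptors were lower with JQ1, that of TACI 17.6-fold and that of BCMA 25.8-fold. In SU-DHL-5, which carried almost no TACI RNA, BCMA RNA was 5.85-fold lower and BAFF-R RNA was not. In bulk RNA, fewer cells that express a gene and less RNA per cell cannot be told apart.

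TNFRSF13B (chr17:16939084-16972088) encodes TACI. The Toledo libraries measured 41.2 and 39.5 RPKM with DMSO and 2.08 and 2.51 RPKM with JQ1. Every JQ1 library was far below both DMSO libraries. The pooled reads were 1861 with DMSO and 101 with JQ1, and the level was 17.6-fold lower with JQ1 (log2 ratio -4.08, interval -4.44 to -3.85). Of the 9156 genes with at least 100 reads in a library of this comparison, 7 had a log2 ratio as low as or lower than that of TNFRSF13B, itself included. SU-DHL-5 had no read of it with DMSO, and its JQ1 libraries held 1 read in all. A count of 0 over the DMSO libraries allows a level of up to 0.068 RPKM, so that the direction of a JQ1 difference was not detectable in this line.

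TNFRSF17 (chr16:11965107-11968068) encodes BCMA. Its Toledo libraries were at 26.2 and 21.9 RPKM with DMSO and at 0.804 and 1.06 RPKM with JQ1. The RNA was 25.8-fold lower with JQ1, from 814 to 30 pooled reads (log2 ratio -4.55, interval -5.27 to -4.17). With JQ1 the gene thus dropped below the level it had in untreated SU-DHL-5 cells. Among the 9156 genes, 4 had a log2 ratio as low or lower, itself included. In SU-DHL-5 the DMSO libraries had 3.78 and 3.14 RPKM and the JQ1 libraries 0.427 and 0.757 RPKM, with no overlap. This was 112 against 18 pooled reads and a 5.85-fold lower level (log2 ratio -2.36, interval -3.37 to -1.84). The log2 ratio of Toledo minus that of SU-DHL-5 was -2.19, and the counting intervals of the 2 lines did not overlap, but with 1 sample per condition this difference was not tested.

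TNFRSF13C (chr22:41925032-41926817) encodes BAFF-R. In SU-DHL-5 it was at 9.27 and 9.96 RPKM with DMSO and at 12.1 and 10.0 RPKM with JQ1. The second JQ1 library barely exceeded the higher DMSO library. The log2 ratio was 0.20 with an interval of -0.02 to 0.44 (294 against 324 pooled reads), it was 0.01 in the second libraries alone, and the libraries overlapped once the JQ1 values were scaled to the median gene. In Toledo the DMSO libraries had 1.94 and 2.04 RPKM and the JQ1 libraries 0.395 and 0.663 RPKM. The level there was 3.76-fold lower with JQ1, on only 63 against 16 pooled reads (log2 ratio -1.73, interval -2.80 to -1.10). With 1 RPKM added in place of 0.1 RPKM the log2 ratio was -0.97, just short of 2-fold. The authors' gene model of 934 bases spans positions 41925032 to 41926817, and that of RefSeq 41922032 to 41926806. Reads from the added part of the longer form would lie outside the model used.

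**Figure D1:**
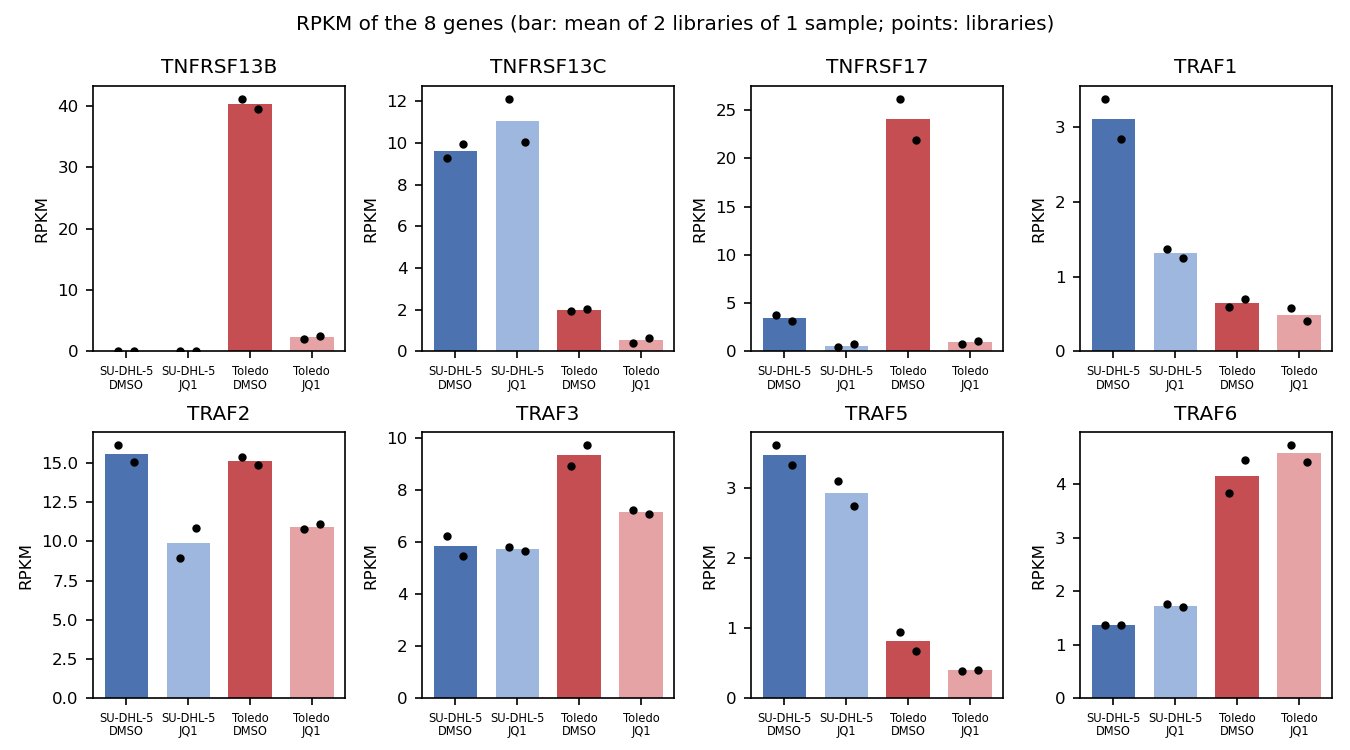
RPKM of each gene on a linear axis that starts at 0, with a panel per gene. Bars are the mean of the 2 libraries of 1 sample and points are the libraries, for SU-DHL-5 with DMSO and JQ1 and Toledo with DMSO and JQ1; TNFRSF13B stands at 39.5 to 41.2 RPKM in Toledo with DMSO and near 0 in SU-DHL-5, and TRAF2 is close to 15 RPKM in both lines with DMSO.

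Summed over the 3 receptor genes, the level was 13.1 RPKM in each SU-DHL-5 library with DMSO, and 12.6 and 10.8 RPKM with JQ1. In Toledo the sum was 69.3 and 63.5 RPKM with DMSO and 3.28 and 4.23 RPKM with JQ1. The lines therefore exchanged places, Toledo having more receptor RNA than SU-DHL-5 without drug and less with it. The makeup also differed. BAFF-R RNA made up 71.0% and 76.0% of the sum in the DMSO libraries of SU-DHL-5 and 96.3% and 93.0% in its JQ1 libraries. In Toledo, TACI RNA made up 59.4% and 62.3% of the sum with DMSO and 63.5% and 59.3% with JQ1, while the share of BAFF-R RNA was 2.80% and 3.22% with DMSO and 12.0% and 15.7% with JQ1.

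**Figure D2:**
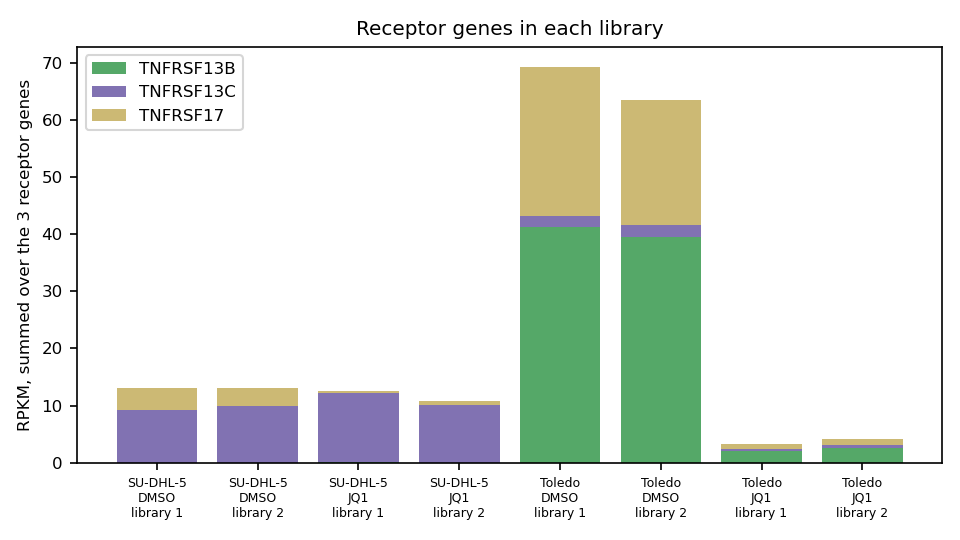
RPKM summed over the 3 receptor genes in each of the 8 libraries, stacked by gene, on a linear axis from 0. The Toledo DMSO libraries reach 69.3 and 63.5 RPKM and its JQ1 libraries 3.28 and 4.23 RPKM, while all SU-DHL-5 libraries lie between 10.8 and 13.1 RPKM.

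B-cell markers were also lower with JQ1. In each line, 5 of the 6 had both JQ1 libraries below both DMSO libraries (in SU-DHL-5 37.0% of all genes were so, in Toledo 40.4%), and 3 were past 2-fold (7.38% and 9.18%). The exception was CD79B in SU-DHL-5 (log2 ratio 0.01) and PAX5 in Toledo (log2 ratio 0.27), each with overlapping libraries. Their summed level was 942 RPKM with DMSO and 633 RPKM with JQ1 in SU-DHL-5, while Toledo had 916 and 618 RPKM. Of 4 plasma-cell markers matched, SDC1, XBP1 and PRDM1 were lower with JQ1 in each line and IRF4 was not, and the list summed to 15.5 RPKM with DMSO and 6.50 RPKM with JQ1 in SU-DHL-5, and to 106 and 87.6 RPKM in Toledo. The part of these markers in the receptor differences was not tested.

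The second question was whether the adaptors followed the receptors. They did so only in part, and no TRAF gene differed as much as TNFRSF13B or TNFRSF17 did in Toledo. TRAF1 and TRAF2 were lower with JQ1 in both lines, TRAF5 likewise, TRAF3 was lower in Toledo, and TRAF6 was lower in neither line. Summed over the 5 TRAF genes, the level was 30.8 and 28.1 RPKM with DMSO and 21.0 and 22.2 RPKM with JQ1 in SU-DHL-5. In Toledo it was 29.7 and 30.4 RPKM with DMSO and 23.7 and 23.4 RPKM with JQ1.

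TRAF2 (chr9:136886513-136926615) encodes the adaptor that brings the cIAP ligases to receptor complexes and was the most abundant of the 5, with 42.6% to 53.7% of their summed RPKM in every library. In SU-DHL-5 it measured 16.2 and 15.1 RPKM with DMSO and 8.93 and 10.8 RPKM with JQ1. The level was 1.58-fold lower (log2 ratio -0.65, interval -0.80 to -0.53), and the 2 JQ1 libraries themselves differed by 0.28 on the log2 scale. In Toledo it measured 15.4 and 14.9 RPKM with DMSO and 10.8 and 11.1 RPKM with JQ1, a 1.38-fold lower level (log2 ratio -0.46, interval -0.60 to -0.34). The counting intervals of the lines overlapped. In SU-DHL-5, 892 of 8851 genes with at least 100 reads had a log2 ratio as low or lower, TRAF2 included. In Toledo 1891 of 9156 such genes did. The microRNA gene MIR4479 lies within the TRAF2 interval and had 0 reads.

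TRAF3 (chr14:102777479-102911500), the adaptor that restrains NIK, was the next in level among the TRAF genes. In SU-DHL-5 it was at 6.25 and 5.46 RPKM with DMSO and at 5.81 and 5.67 RPKM with JQ1, and the libraries overlapped (log2 ratio -0.03, interval -0.13 to 0.08). The Toledo libraries were at 8.95 and 9.73 RPKM with DMSO and at 7.25 and 7.09 RPKM with JQ1, so that both JQ1 libraries were lower. The Toledo log2 ratio was -0.38 with an interval of -0.47 to -0.29, on 2459 against 1807 pooled reads. There 2301 of 9156 genes with at least 100 reads had a log2 ratio as low or lower, TRAF3 included. The counting intervals of the lines did not overlap, and the log2 ratio of Toledo minus that of SU-DHL-5 was -0.35, without a test. Centring each library on genes of like length gave a log2 ratio of -0.20 in SU-DHL-5, where both JQ1 libraries then lay below those with DMSO, so that TRAF3 was lower in both lines and 5 genes shared a direction.

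TRAF1 (chr9:120902393-120929173) encodes the family member that lacks a RING domain and is itself known as a target of NF-κB. In SU-DHL-5 the libraries were at 3.38 and 2.84 RPKM with DMSO and at 1.36 and 1.26 RPKM with JQ1. This was a 2.38-fold lower level with no overlap, on 464 against 187 pooled reads (log2 ratio -1.19, interval -1.49 to -0.99). Of 8851 genes with at least 100 reads in a library of this comparison, 355 had a log2 ratio as low or lower. With 1 RPKM added the log2 ratio was -0.83. TRAF1 had few reads in Toledo, at 0.593 and 0.700 RPKM with DMSO and at 0.578 and 0.406 RPKM with JQ1. The log2 ratio there was -0.33, and the interval of -0.84 to 0.06 on 100 against 73 reads held 0. It was -0.03 in the first libraries alone and -0.66 in the second, and the libraries overlapped when JQ1 values were scaled to the median gene, which left 6 of the 8 genes lower without overlap in Toledo.

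TRAF5 (chr1:211326526-211375061), whose protein resembles TRAF2 and TRAF3 in the receptors it binds, was at 3.61 and 3.33 RPKM with DMSO and at 3.10 and 2.75 RPKM with JQ1 in SU-DHL-5. The log2 ratio was -0.24 (interval -0.43 to -0.05), and 2365 of 8851 genes with at least 100 reads were as low or lower, TRAF5 included. Toledo had less of it, at 0.939 and 0.677 RPKM with DMSO and at 0.386 and 0.403 RPKM with JQ1. Both JQ1 libraries were lower in either line. In Toledo the means differed 2.05-fold on 123 against 57 pooled reads. With the 0.1 RPKM added before the ratio the log2 value was -0.88, short of 2-fold, while the first libraries alone gave -1.10. The interval of the reads, to which no constant is added, was -1.52 to -0.58.

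TRAF6 (chr11:36483767-36510313) encodes the ubiquitin ligase of the Toll-like receptor arm. In SU-DHL-5 it measured 1.37 RPKM in each DMSO library and 1.75 and 1.71 RPKM with JQ1. Both JQ1 libraries were higher, with a log2 ratio of 0.32 (interval 0.13 to 0.54) on 359 against 432 pooled reads. In Toledo it measured 3.84 and 4.46 RPKM with DMSO and 4.74 and 4.43 RPKM with JQ1, and the libraries overlapped. The log2 ratio was 0.14 (interval 0.03 to 0.27). It was 0.29 in the first libraries alone and -0.01 in the second, and the DMSO libraries differed by 0.21 on the log2 scale. Once the JQ1 values were scaled to the median gene, the conditions were apart in Toledo as well, with JQ1 higher. They were not apart there when each library was centred on genes of like length. That setting lowered the log2 ratio of TRAF6 to 0.15 in SU-DHL-5 and to 0.07 in Toledo.

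**Figure D3:**
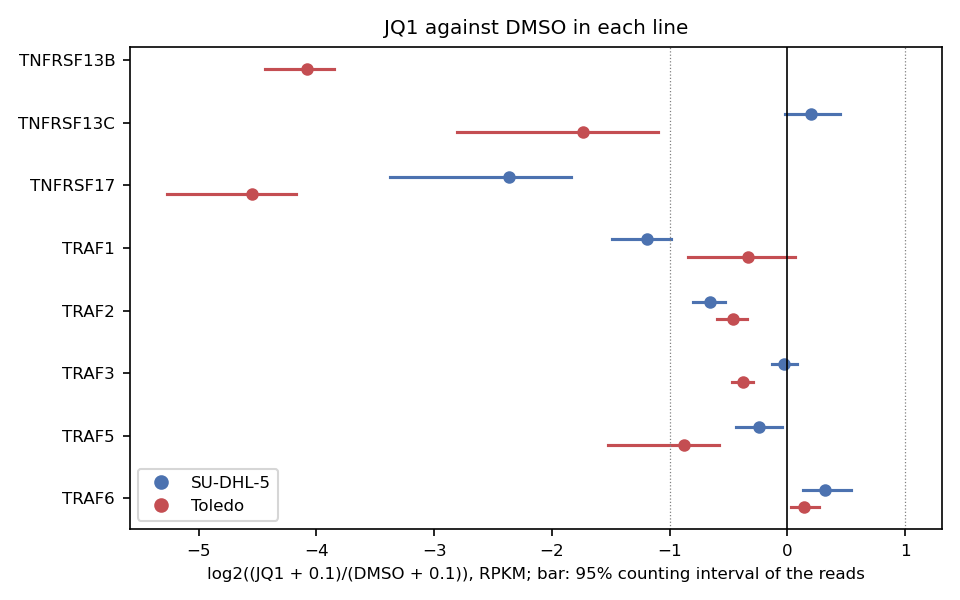
Log2 ratio of JQ1 over DMSO for each gene, with 0.1 RPKM added to each mean, in SU-DHL-5 (blue) and Toledo (red). Bars are 95% counting intervals of the reads, without the 0.1 RPKM, and dotted lines mark 2-fold. TNFRSF13B has no point in SU-DHL-5 because it had at most 1 read per condition, and TNFRSF17 and TNFRSF13B of Toledo lie farthest left, at -4.55 and -4.08, followed by TNFRSF17 of SU-DHL-5 at -2.36.

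Counted together, 4 of the 8 genes had non-overlapping libraries with JQ1 lower in SU-DHL-5, and 2 with JQ1 higher, against 37.0% and 33.6% of the 13269 genes with a value. In Toledo 7 of 8 were lower and 0 higher by this rule, against 40.4% and 24.2% of 14124 genes. Libraries that do not overlap were thus common among all genes. The 2-fold limit was stricter. In SU-DHL-5 it was passed downward by 2 genes, TNFRSF17 and TRAF1 (7.38% of all genes), and upward by none (1.83%). In Toledo it was passed downward by the 3 receptors (9.18%) and upward by none (2.0%).

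The median log2 ratio of the 7 genes with reads above the floor of 3 per condition was -0.24 in SU-DHL-5, beside -0.03 over all genes with a value. Over all 8 genes in Toledo it was -0.67, beside -0.10 over all genes. In both lines, 4 genes (TNFRSF17, TRAF1, TRAF2 and TRAF5) were lower without overlap, a state shared by 27.3% of the 12449 genes with a value in both lines. No gene of the 8 was higher without overlap in both lines, against 19.2% of those genes. TNFRSF13C was the gene whose libraries lay apart in opposite directions.

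The third comparison set the lines side by side without drug. It shares its DMSO samples with the comparisons above. TACI and BCMA RNA were higher in Toledo and BAFF-R RNA was higher in SU-DHL-5. TNFRSF13B, with 0 reads against 1861, was at least 598-fold higher in Toledo, taking 3 reads over both SU-DHL-5 libraries as the floor. TNFRSF17 was 6.95-fold higher in Toledo (log2 ratio 2.76, interval 2.52 to 3.11), and TNFRSF13C was 4.83-fold lower (log2 ratio -2.22, interval -2.69 to -1.88).

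The adaptors split in the same comparison. TRAF1 was 4.81-fold lower in Toledo (log2 ratio -2.11, interval -2.59 to -1.95) and TRAF5 was 4.30-fold lower (log2 ratio -1.98, interval -2.39 to -1.80). TRAF6 was 3.03-fold higher in Toledo (log2 ratio 1.53, interval 1.42 to 1.77). TRAF3 was 1.60-fold higher (log2 ratio 0.66, interval 0.58 to 0.77), with a log2 ratio of 0.51 in the first libraries alone and of 0.82 in the second. TRAF2 had overlapping libraries and a log2 ratio of -0.05 (interval -0.16 to 0.07).

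Without drug, 4 of the 8 genes had both Toledo libraries above both SU-DHL-5 libraries and 3 had both below, against 40.4% and 36.6% of 14492 genes. Past 2-fold, 3 genes were higher in Toledo (16.8% of all genes) and 3 lower (12.9%). The lines thus differed past 2-fold in 6 of the 8 genes. Plasma-cell markers differed in the same samples, and beside the higher BCMA RNA of Toledo their summed level was 106 RPKM there and 15.5 RPKM in SU-DHL-5. Most of this was IRF4 and XBP1, while SDC1 was lower in Toledo (0.179 against 0.938 RPKM, log2 ratio -1.89) and PRDM1 was low in both lines. The part of the markers in the receptor levels was not tested.

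**Figure D4:**
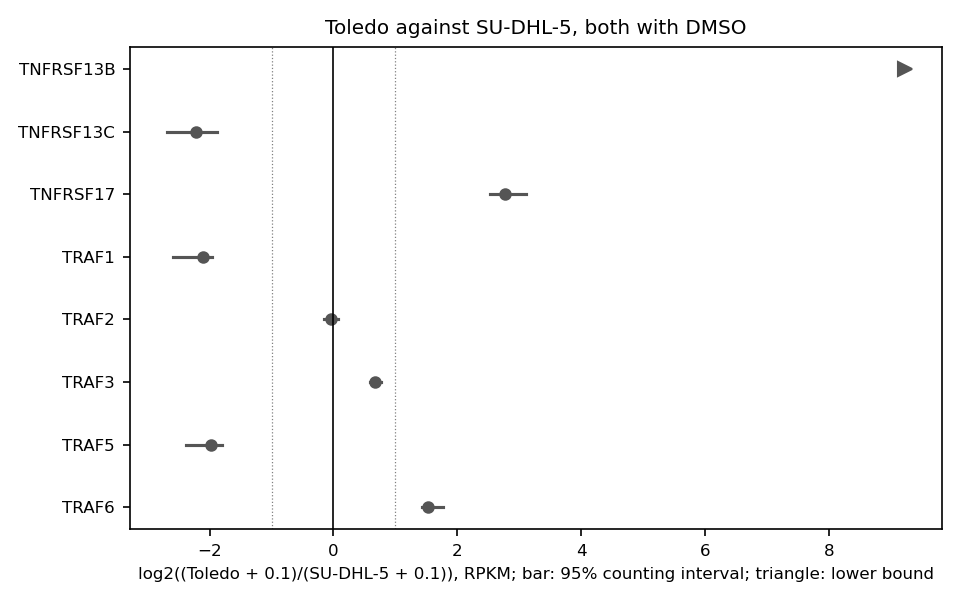
Log2 ratio of Toledo over SU-DHL-5 with DMSO for each gene, with 0.1 RPKM added to each mean. Bars are 95% counting intervals of the reads, without the 0.1 RPKM. Dotted lines mark 2-fold, and the triangle of TNFRSF13B is a lower bound at 598-fold. TRAF2 lies at -0.05, with TNFRSF13C, TRAF1 and TRAF5 near -2 and TNFRSF17 and TRAF6 at 2.76 and 1.53.

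The order of the levels per length followed from these differences. In SU-DHL-5 with DMSO it was TRAF2, TNFRSF13C, TRAF3, TRAF5, TNFRSF17, TRAF1, TRAF6 and TNFRSF13B, and TNFRSF17 overlapped with both TRAF5 and TRAF1 in its libraries. With JQ1 TNFRSF13C came first, its libraries overlapping with those of TRAF2, and TNFRSF17 moved from the fifth to the seventh place. In Toledo with DMSO the order was TNFRSF13B, TNFRSF17, TRAF2, TRAF3, TRAF6, TNFRSF13C, TRAF5 and TRAF1, and only TRAF5 and TRAF1 overlapped. TNFRSF13B stood there above 88.4% of the genes with a value. With JQ1 it stood above 40.1% of them, TRAF2, TRAF3 and TRAF6 took the first places in Toledo, and the libraries of TNFRSF13C and TRAF1 overlapped.

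The transcript table lists 1 transcript for each receptor, so that the receptor ratios rest on a single model. Among the TRAF genes, 1 transcript carried most of the RPKM as the authors assigned it, and except for TRAF1 it was the same in every sample. With DMSO the first TRAF2 transcript held 97.5% in SU-DHL-5 and 95.4% in Toledo, with JQ1 100% in both, and the second was listed at 0 in all JQ1 libraries. The first TRAF3 transcript held 78.3% to 85.8%, and the third reached 1.64 RPKM in a DMSO library of Toledo but 0.452 RPKM in the other. The first TRAF1 transcript held 80.1% with DMSO and 89.7% with JQ1 in SU-DHL-5, whereas it held 40.2% and 84.1% in Toledo, where the gene had few reads. In Toledo with DMSO the second TRAF1 transcript held the larger share, 59.8%. For TRAF5, the fourth transcript was at 0.975 RPKM in the first DMSO library of Toledo and at 0 in the second. The assignment between transcripts thus differed between libraries of 1 sample. The first transcript of TRAF6 held all of its RPKM.

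The genes around these receptors and adaptors were read from lists of their ligands, of related receptors and of the arms below TRAF3 and TRAF6. Both ligand genes were close to 0 in every library. TNFSF13B, which encodes BAFF, was at 0.132 and 0.122 RPKM with DMSO and at 0 with JQ1 in SU-DHL-5, on 12 and 0 pooled reads. In Toledo it was at 0.0587 and 0.0213 RPKM with DMSO and at 0.0213 and 0.0643 RPKM with JQ1. TNFSF13, which encodes APRIL, stayed at or below 0.249 RPKM in all 8 libraries and had at most 17 pooled reads in a sample. The other TRAF genes measured, TRAF4 and TRAF7, were well expressed. TRAF4 was at 20.7 and 17.7 RPKM with DMSO and 18.1 and 17.4 RPKM with JQ1 in SU-DHL-5, and its libraries overlapped in both lines (log2 ratios -0.11 and 0.04). TRAF7 overlapped in SU-DHL-5 (log2 ratio -0.07) and was slightly lower with JQ1 in Toledo, at 31.8 and 30.5 RPKM against 26.2 and 29.3 RPKM (log2 ratio -0.16).

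Of 10 other receptors of the family that bind TRAF proteins, 5 had a value in SU-DHL-5. All 5 were lower with JQ1 without overlap (37.0% of all genes), 3 of them past 2-fold (7.38%). CD27, the costimulatory receptor of memory B cells, was at 173 and 161 RPKM with DMSO and at 19.7 and 18.6 RPKM with JQ1 (log2 ratio -3.12). It was almost absent from Toledo, with 1 and 4 pooled reads. TNFRSF1B, the second receptor of tumor necrosis factor, had 249 reads with DMSO and 69 with JQ1 in SU-DHL-5 (log2 ratio -1.63). In Toledo 6 of the 10 had a value, of which 2 were higher and 2 lower without overlap (24.2% and 40.4% of all genes). Among them CD40 had 896 reads with DMSO and 965 with JQ1, and no other had more than 25 in a condition. The list's median log2 ratio was -1.63 in the former line and 0.12 in the latter, beside -0.03 and -0.10 over all genes. These medians rest on different genes, and the second mostly on few reads, so that they do not compare the response of the lines.

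In the non-canonical arm below TRAF3, no gene of 6 was past 2-fold with JQ1 in either line. In SU-DHL-5 3 were higher and 2 lower without overlap (33.6% and 37.0% of all genes). In Toledo 2 were higher and 1 lower (24.2% and 40.4%). MAP3K14, the gene of NIK, BIRC3, that of cIAP2, and NFKB2, that of p100, were named after their values were seen. MAP3K14 and BIRC3 were the pair higher in both lines, and NFKB2 was lower in both. MAP3K14 was at 9.25 and 8.28 RPKM with DMSO and at 10.97 and 11.2 RPKM with JQ1 in SU-DHL-5 (log2 ratio 0.34), and at 5.25 and 4.99 RPKM and 9.66 and 7.82 RPKM in Toledo (log2 ratio 0.76). The log2 ratio of BIRC3 was 0.15 in SU-DHL-5 cells and 0.47 in those of Toledo. Without drug, 5 of the 6 genes were lower in Toledo than in SU-DHL-5 without overlap (36.6% of all genes), 2 of them past 2-fold (12.9%).

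The arm from TRAF6 to TAK1 held 8 genes. In SU-DHL-5 4 were higher and 3 lower with JQ1 without overlap (33.6% and 37.0% of all genes). In Toledo 0 were higher and 2 lower (24.2% and 40.4%). IRAK1, the kinase that hands the signal of Toll-like receptors to TRAF6, was the one past 2-fold in either line. It was at 79.2 and 63.4 RPKM with DMSO and at 17.9 and 19.2 RPKM with JQ1 in SU-DHL-5 (log2 ratio -1.94). Toledo had 133 and 129 RPKM with DMSO and 28.8 and 30.2 RPKM with JQ1 (log2 ratio -2.15). TRAF6 itself, as given above, was at log2 ratios of 0.32 and 0.14 in the same libraries.

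Among 11 genes of proteins that bind TRAF proteins or remove ubiquitin from them, 10 had a value in SU-DHL-5. Of these, 4 were higher and 4 lower with JQ1 (33.6% and 37.0% of all genes), and none was past 2-fold. In Toledo 2 were higher and 5 lower (24.2% and 40.4%), 2 of those past 2-fold (9.18%). TRAF3IP3, whose protein binds TRAF3, was at 2.81 and 2.54 RPKM with DMSO and at 0.125 and 0.126 RPKM with JQ1 in Toledo, on 269 and 12 pooled reads (log2 ratio -3.62). It was at 0 in all libraries of SU-DHL-5, as TNFRSF13B was in all but 1. Reads of genes that overlap on opposite strands may not have been told apart, since the kit kept the strand but its use in counting is not given in the sources used here.

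**Figure D5:**
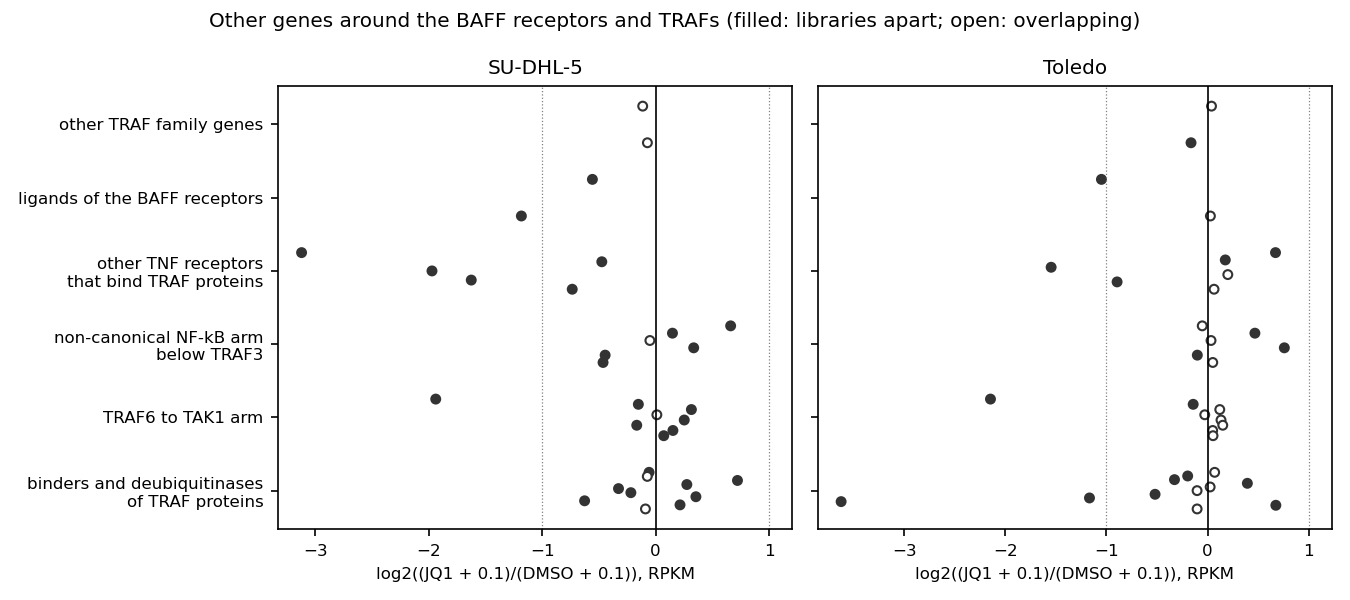
Log2 ratio of JQ1 over DMSO, with 0.1 RPKM added to each mean, for genes of 6 lists around the receptors and adaptors in SU-DHL-5 (left) and Toledo (right). Each point is a gene, filled where the libraries of the conditions lie apart and open where they overlap, and dotted lines mark 2-fold; most points lie between the dotted lines, with CD27 at -3.12 in SU-DHL-5, TRAF3IP3 at -3.62 in Toledo and IRAK1 at -1.94 and -2.15.

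The genes most like each of the 8 across the libraries were sought among 9727 genes, by the root mean square (RMS) difference of log2 levels after each gene was centred on its own mean over the 8 libraries. This is a description over 4 samples. The closest to TNFRSF13B was MT1G, a metallothionein gene, at 0 in all SU-DHL-5 libraries, at 36.3 and 26.3 RPKM in Toledo with DMSO and at 2.79 and 2.66 RPKM with JQ1 (RMS difference 0.31, against a median of 3.57 over all genes). FBP1, a gluconeogenic enzyme, came next at 0.44. TNFRSF17 was most like CD80, a costimulatory ligand (0.54), and AOX1, an aldehyde oxidase (0.56). TNFRSF13C was most like FAM57A (0.27) and SCD5, a fatty acid desaturase (0.30).

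The median RMS difference over all genes was 1.72 for TNFRSF13C and 2.06 for TNFRSF17, and it was smaller for the TRAF genes, from 0.48 for TRAF3 to 1.21 for TRAF5. TRAF1 was most like ZNF438 (0.15) and FURIN, a protein convertase (0.19), which were also lower with JQ1 in SU-DHL-5 and low in Toledo. TRAF3 was most like EXO1, a DNA repair exonuclease (0.054), and TM9SF4 (0.061), and TRAF2 was most like OVCA2 (0.079) and LTBP4 (0.080). TRAF5 was closest to NAB2 (0.11) and SPATS2L (0.12), and TRAF6 to WIPF2 (0.066) and ETV3 (0.078). None of these genes belongs to the lists above.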

How the data were processed

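Libraries were made with a stranded mRNA kit from 1 sample per condition, for 2 cell lines with DMSO or JQ1. The values deposited by the authors are RPKM of genes and of transcripts, in 2 libraries of each sample. Their processing notes name GRCh38/hg38 and CASAVA 2.0, and the aligner, counting and annotation are not given in the sources used here. Gene positions overlapped GRCh38.p14 for 99.8% of 32699 shared symbols. Starts in the files count from 0 and were printed from 1.

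Mapped reads per library were recovered as the totals that made RPKM times length whole for genes of a single exon (282 with a value). The smallest length from 100 to 40000 bases that gave whole reads, within 0.02 of a read, was then taken for each gene, which succeeded for 14943 of 14944 genes with a value. The recovery was tested on simulated data. Gene ratios were log2((mean + 0.1)/(mean + 0.1)) of the 2-library means in RPKM. A gene was called by libraries that do not overlap, or past 2-fold. Intervals are exact binomial (95%) on the pooled reads. Neither the intervals nor the printed folds include the added 0.1 RPKM, so that a log2 ratio need not match its fold or lie at the middle of its interval. A condition with 3 reads or fewer was at the floor. No count model and no test across samples was made.

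The genes and lists were chosen with earlier results of these data known. The text names all 8 genes and up to 4 genes per list past 2-fold with at least 100 reads in a library. It also names the ligand genes, TRAF4 and TRAF7, the 2 most like genes and transcripts of at least 1 RPKM. Other names fall outside this rule, such as CD40, single marker genes and the second transcripts of TRAF1 and TRAF2. MAP3K14, BIRC3 and NFKB2 were chosen afterwards. Promoter windows were those of RefSeq on GRCh38.p14. The alternatives varied the pseudocount, the library, the scaling, the table and a filter on low values. Calculations ran in Python 3.11.15 with scipy 1.17.1, pandas 2.3.3 and numpy 2.4.6, and plots were drawn with matplotlib 3.10.9.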

Additional observations from a re-analysis of the deposited data

Results flagged for a closer look

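TNFRSF13C was the only one of the 8 genes whose libraries moved in opposite directions in the 2 lines. With JQ1 both libraries were above those with DMSO in SU-DHL-5 and below them in Toledo, and the log2 ratio in Toledo minus that in SU-DHL-5 was -1.94. With 1 sample per condition the difference was not tested, and the SU-DHL-5 direction was lost when the JQ1 values were scaled to the median gene.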

How the results depend on the processing

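Of 230 values recomputed under other settings, 202 stayed within the spread between libraries or, for counts, close to the main count, 28 moved by more and 0 called values changed sign. With a pseudocount of 1 RPKM, the median log2 ratio came to -0.19 for SU-DHL-5 (7 genes with a value) and to -0.40 for Toledo (8 genes), and 1 gene was past 2-fold in SU-DHL-5, since this constant shrinks low genes. Centring on transcript length gave a median of -0.30 in SU-DHL-5, and the first libraries alone gave -0.80 in Toledo. With only genes of at least 1 RPKM the Toledo median was -1.10 and the genes lower in both lines numbered 2, because fewer genes were kept. Scaled by the median ratio of all genes (1.01 for SU-DHL-5, 0.949 for Toledo), 1 gene was higher without overlap in SU-DHL-5, TRAF6, and 1 in Toledo, also TRAF6. None was higher without overlap in Toledo after centring on transcript length. The log2 ratio of TNFRSF13C in Toledo ranged from -2.04 to -0.97 and that of TRAF5 from -1.10 to -0.37. No paired analysis was possible because with 1 sample in a condition nothing was tested. TNFRSF13C, TNFRSF17, TRAF1 and TRAF5 had 100 pooled reads or fewer in Toledo with JQ1, which limits the precision of their ratios.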
